A study of Homo sapiens with 16 samples.

Results

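Genes of the immediate early response were followed in every library of an RNA-seq panel of renal cancer cell lines. The 10 genes were FOS, FOSB, JUN, JUNB, EGR1, ATF3, IER2, DUSP1, MYC and RHOB, taken by name from the 57773 genes of the count table, and all 10 were among the 20175 genes that had enough reads to be tested. Immediate early genes are transcribed rapidly when a growth factor, serum or a stress reaches a cell, without the need for new protein synthesis. The signal runs largely through the MAP kinases ERK, JNK and p38 to transcription factors that already sit at the promoters, among them SRF with its ELK partners at the CArG box and CREB and ATF proteins at the cyclic AMP response element (CRE). Their transcripts are short-lived, so that a change of medium, dissociation of the cells or crowding of a dish can shift them. In renal epithelium and in renal cancer cells they are read as marks of growth factor and stress signalling.

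The 16 libraries came from 4 established human lines of clear cell renal carcinoma (ccRCC), namely A498, 769-P, CAKI-2 and 786-O, grown in medium with serum. All libraries, controls included, came from cells infected with a lentivirus that carried spCas9, a guide RNA and a drug resistance gene, and the cells were used as infected populations. Each line had 1 library with the control guide sgCtrl and 2 libraries with guides against KDM5C (sgKDM5C 4 and sgKDM5C 5), a histone H3K4 demethylase encoded on chromosome X, and 786-O and CAKI-2 also had 2 libraries with guides against its homologue KDM5D on chromosome Y (sgKDM5D 2 and sgKDM5D 4). The sgKDM5C guides overlap at one site in the gene, so they are not independent as to where they cut. The state of each culture at the time of lysis (last feeding, density, dissociation) is not given in the sources used here, and a difference in it cannot be told apart from a difference between the lines or guides. The 2 libraries of a mutant group carried different guides and so came from separately infected populations. The p-values measure the spread between these libraries, in which differences between guides and between cultures are mixed.

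Each library held between 23.4 M and 41.6 M counts, where M stands for 10 to the power 6. KDM5C transcript was left at 26.2% to 57.3% of the control in the 8 sgKDM5C libraries, whereas KDM5D transcript stood at 76.2% to 103% of the control in the 4 libraries labelled sgKDM5D, so it does not check that label. PAX8, a renal lineage factor, measured 150 to 991 CPM (counts per M of the library total). Other kidney markers varied by line. LRP2 reached 17.5 CPM in CAKI-2 but 0.0365 in 786-O. CA9 reached 9.57 CPM in A498, but at most 0.0743 in CAKI-2, 0.0646 in 786-O and 0 in 769-P. The leukocyte genes PTPRC and CD3E had at most 2 counts and 0 counts in any library. CD14, another leukocyte gene, reached 20 counts, and the endothelial gene CDH5 reached 53. The 2 libraries of a group differed beyond sampling noise, with a chi-square of 11.1 to 80.1 per gene, and the largest value belonged to the sgKDM5C pair of 786-O.

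FOS and FOSB differed most between the lines, and DUSP1 showed the smallest p-value among the guide comparisons. EGR1 shared with FOS the split of the lines into a high and a low pair, as did FOSB, ATF3 and RHOB. The promoter sequences of FOS, FOSB, EGR1 and DUSP1 are printed for these reasons, and those of ATF3 and RHOB are not. Each is a window of 300 bases from 340 to 41 bases before the start of the gene in GENCODE 44 on GRCh37, read 5′ to 3′ on the strand of the gene, with motif matches in capitals. The windows are chr14:75745189-75745488 (plus strand), chr19:45970913-45971212 (plus strand), chr5:137800828-137801127 (plus strand) and chr5:172198239-172198538 (minus strand).
FOS: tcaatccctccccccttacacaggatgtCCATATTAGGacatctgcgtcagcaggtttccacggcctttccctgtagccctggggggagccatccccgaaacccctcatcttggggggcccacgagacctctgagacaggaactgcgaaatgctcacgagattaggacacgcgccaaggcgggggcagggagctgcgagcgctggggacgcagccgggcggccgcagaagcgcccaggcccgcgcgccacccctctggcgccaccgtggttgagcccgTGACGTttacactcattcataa
FOSB: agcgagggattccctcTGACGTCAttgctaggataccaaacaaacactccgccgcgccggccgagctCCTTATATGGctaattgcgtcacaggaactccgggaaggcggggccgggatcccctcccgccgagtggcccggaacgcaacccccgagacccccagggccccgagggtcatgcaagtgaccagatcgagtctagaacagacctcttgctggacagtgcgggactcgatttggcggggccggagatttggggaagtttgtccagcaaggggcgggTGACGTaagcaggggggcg
EGR1: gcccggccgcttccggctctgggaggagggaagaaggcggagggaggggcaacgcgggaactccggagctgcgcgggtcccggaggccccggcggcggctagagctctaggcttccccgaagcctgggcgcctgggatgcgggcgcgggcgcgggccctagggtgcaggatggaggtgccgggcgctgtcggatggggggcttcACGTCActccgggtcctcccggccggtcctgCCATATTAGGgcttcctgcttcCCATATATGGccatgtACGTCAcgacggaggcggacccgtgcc
DUSP1: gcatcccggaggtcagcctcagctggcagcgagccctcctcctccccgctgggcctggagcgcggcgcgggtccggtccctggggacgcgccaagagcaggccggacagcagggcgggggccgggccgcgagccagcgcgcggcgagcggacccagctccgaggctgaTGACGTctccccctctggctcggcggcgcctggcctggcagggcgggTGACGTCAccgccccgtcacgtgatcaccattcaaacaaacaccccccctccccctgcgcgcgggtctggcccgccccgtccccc

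The 4 motifs named here were searched on both strands of these windows in 9 of the 10 genes (the MYC window was not read) and in 20139 protein-coding genes. The CRE core TGACGT stood in 5 of the 9 windows (FOS, FOSB, JUN, EGR1 and DUSP1) and in 6.6% of all windows. The longer form TGACNTCA, which overlaps the core when N is G, stood in 4 of 9 (FOSB, JUN, ATF3 and DUSP1) and in 6.13% of all. The CArG box stood in 3 of 9 (FOS, FOSB and EGR1) and in 1.38% of all. It was absent from the windows of ATF3 and RHOB. Whether any of these motifs bears on the high and low pair of lines was not tested. The AP-1 site TGANTCA stood in 0 of 9 and in 6.87% of all. In FOS the CArG box lay 312 to 303 bases before the start and a CRE core 62 to 57 bases before it. EGR1 had a pair of CArG boxes, at 105 to 96 and 83 to 74 bases, flanked by CRE cores at 136 to 131 and 67 to 62 bases on the other strand. DUSP1 held no CArG box but 3 matches to the core, of which those at 125 to 120 and 123 to 118 bases form 1 palindrome. JUNB, IER2 and RHOB held none of the 4 in this window. The matches are letters in a window and were not tied to any measurement of binding. All 9 windows lie before the annotated start, which for ATF3 is that of its most upstream transcript.

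**Figure D1:**
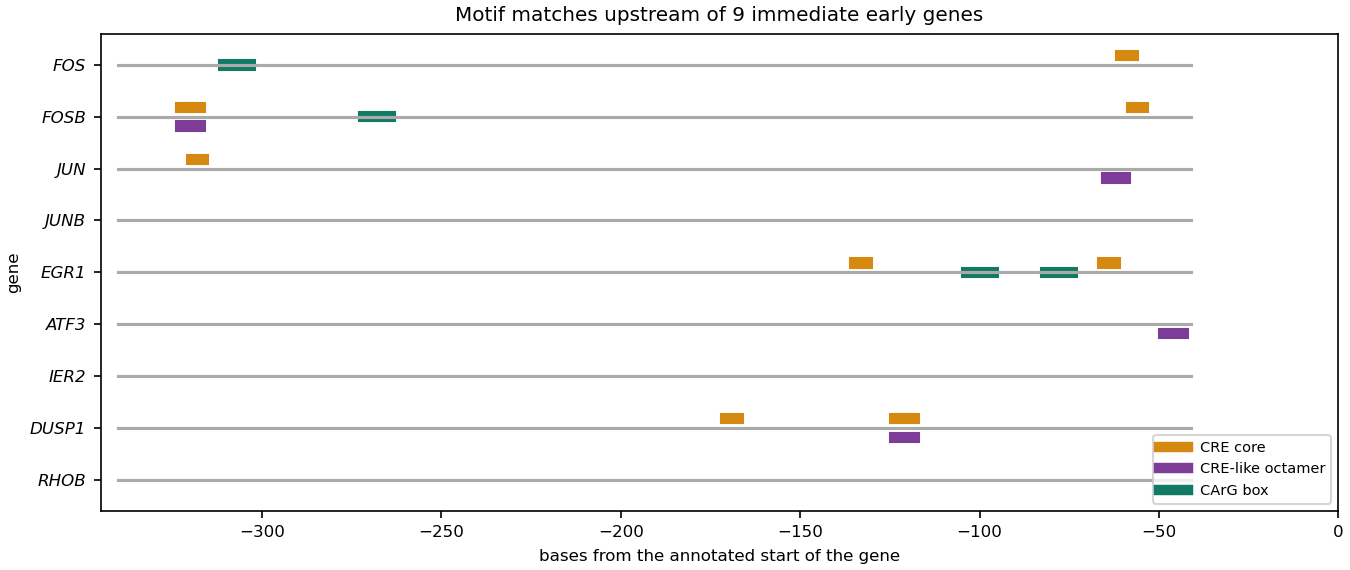
Motif matches in the windows upstream of 9 immediate early genes, by distance in bases from the annotated start (grey lines, 340 to 41 bases before it). Coloured boxes mark the CRE core, the CRE-like octamer and the CArG box on either strand, and 6 of the 9 genes carry at least 1 box.

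The lines differed widely in the AP-1 subunits of the FOS family, which pair with JUN proteins to bind DNA. In CPM of the TMM-scaled library, FOS measured 0.602 in the 786-O control, 0.786 and 0.611 in its sgKDM5C 4 and 5 libraries, and 0.559 and 0.662 in its sgKDM5D 2 and 4 libraries. In 769-P it measured 0.824 in the control, 0.356 with sgKDM5C 4 and 0.206 with sgKDM5C 5. CAKI-2 gave 26.1 in the control, 34.0 and 44 with sgKDM5C 4 and 5, and 27.9 and 27.5 with sgKDM5D 2 and 4, and A498 gave 26.7 in the control, 52.3 with sgKDM5C 4 and 27.4 with sgKDM5C 5. The lines thus fell into a low and a high pair without overlap, and the low pair rested on 5 to 23 counts per library. In bulk RNA, fewer expressing cells and less RNA per cell cannot be told apart. Between lines, the mean of the sgCtrl and sgKDM5C groups of one line was compared with that of another (edgeR quasi-likelihood test, adjusted over all genes). FOS was 48.9-fold higher in CAKI-2 cells than in 786-O (log2 fold change 5.61, SE 0.31, adjusted p = 2.57e-09) and 66.7-fold higher in A498 than in 769-P (log2 fold change 6.06, SE 0.33, adjusted p = 1.2e-09). Within the low pair (log2 fold change -0.42 for 769-P against 786-O, SE 0.41, adjusted p = 0.438) and within the high pair (-0.03 for CAKI-2 against A498, SE 0.22, adjusted p = 0.912) FOS did not pass the test.

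FOSB, the paralogue of FOS, was ordered more finely. It measured 0.515 to 0.970 CPM in the 5 libraries of 786-O, 3.27 to 3.91 in the 3 of 769-P, 4.30 to 10.1 in the 3 of A498 and 10.5 to 27.9 in the 5 of CAKI-2. The ranges of neighbouring lines did not overlap, and the 786-O values rested on 14 to 27 counts per library. FOSB was higher in 769-P than in 786-O (log2 fold change 2.14, SE 0.29, adjusted p = 2.2e-05), in A498 than in 769-P (0.79, SE 0.24, adjusted p = 0.00893) and in CAKI-2 than in A498 (1.73, SE 0.23, adjusted p = 1.39e-05). The A498 step moved to 0.55 without the sgKDM5C 4 libraries (adjusted p = 0.0623) and to 0.52 with the GC trend removed (adjusted p = 0.0445), and it was 1.26 with the sgKDM5C groups alone (adjusted p = 0.000931). FOSB shares its interval with ERCC1 on the opposite strand, which held 22659 counts over the libraries, and whether the counting used strand is not given in the sources used here.

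JUN, the main partner of the FOS proteins, followed a different order. It measured 110 to 171 CPM in 786-O, 102 to 141 in CAKI-2 and 103 to 112 in 769-P, but 988 in the A498 control and 733 and 877 in the A498 sgKDM5C 4 and 5 libraries. Thus A498 stood apart from all other libraries and the other 3 lines overlapped. JUN was 6.42-fold higher in A498 than in 786-O (log2 fold change 2.68, SE 0.18, adjusted p = 1.47e-08), 8.45-fold higher than in 769-P and 7.43-fold higher than in CAKI-2. None of the 3 pairs among the other lines passed the edgeR test. The closest was 769-P against 786-O (log2 fold change -0.40, adjusted p = 0.0684), where JUN was called lower with DESeq2 (adjusted p = 0.0499), when every gene with at least 1 count was tested (adjusted p = 0.00981) and without the sgKDM5C 4 libraries (adjusted p = 0.0102), whereas the estimate was -0.24 without the sgKDM5C 5 libraries (adjusted p = 0.173). JUNB, a JUN paralogue with weaker activating capacity, spanned less, from 40.3 to 68.8 CPM in CAKI-2 to 95.8 to 141 in 769-P, with 59.1 to 87.2 in 786-O and 90.4 to 110 in A498. It was lower in CAKI-2 than in 786-O (log2 fold change -0.39, SE 0.14, adjusted p = 0.0245), A498 (-0.79, adjusted p = 0.000173) and 769-P (-0.98, adjusted p = 2.58e-05). The call against 786-O was lost without the sgKDM5C 4 libraries (-0.28, adjusted p = 0.0898) and with the sgKDM5C groups alone (adjusted p = 0.0503), and that against A498 with the GC trend removed (-0.32, adjusted p = 0.0586). JUNB was called higher in A498 than in 786-O (log2 fold change 0.40, SE 0.14, adjusted p = 0.0178), but turned to -0.12 (adjusted p = 0.454) once the GC trends were taken out of the libraries, and lost the call with every gene of at least 1 count (adjusted p = 0.146) and with the sgKDM5C groups alone (adjusted p = 0.0601). With a GC content of 64.9%, JUNB was the most GC-rich of the 10 genes, and HOOK2 overlaps it on the opposite strand with 10934 counts.

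EGR1, a zinc finger transcription factor and a classical target of the SRF and ELK route, paralleled FOS in placing CAKI-2 and A498 high. It measured 3.72 CPM in the 786-O control, 9.02 and 2.91 with sgKDM5C 4 and 5, and 6.44 and 3.13 with sgKDM5D 2 and 4. In 769-P it measured 8.44 to 9.75 CPM, in CAKI-2 33.7 to 48.0 and in A498 36.3 to 55.6. The upper pair of lines did not overlap with the lower pair, and within 786-O the libraries spread over a 3.10-fold range. EGR1 was 8.25-fold higher in CAKI-2 cells than in 786-O (log2 fold change 3.04, SE 0.37, adjusted p = 6.14e-06) and 4.62-fold higher in A498 than in 769-P (2.21, SE 0.35, adjusted p = 5.76e-05). The step from 786-O to 769-P lay at the threshold (0.91, SE 0.36, adjusted p = 0.0497) and had an adjusted p of 0.107 with DESeq2 and of 0.216 with the sgKDM5C groups alone. It was 0.59 without the sgKDM5C 5 libraries (adjusted p = 0.0883) and 1.45 without the sgKDM5C 4 libraries (adjusted p = 0.00169).

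ATF3, a stress-induced member of the ATF family, separated the 4 lines. Its levels were 7.69 to 12.8 CPM in 786-O, 19.8 to 27.3 in 769-P, 42.9 to 65.9 in CAKI-2 and 156 to 173 in A498. None of these ranges overlapped, and all 6 pairs of lines passed the test, with A498 14.4-fold above 786-O (log2 fold change 3.84, SE 0.17, adjusted p = 2.26e-10). RHOB, an endosomal small GTPase whose gene is induced by growth factors and genotoxic stress, also separated all 4 lines in all 6 pairs. It measured 21.1 to 39.8 CPM in 786-O, 45.4 to 107 in 769-P, 183 to 224 in A498 and 366 to 427 in CAKI-2. RHOB was 14.4-fold higher in CAKI-2 cells than in 786-O (log2 fold change 3.84, SE 0.23, adjusted p = 4.38e-09) and 1.93-fold higher in CAKI-2 than in A498 (0.95, SE 0.19, adjusted p = 0.000645).

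DUSP1, the phosphatase that switches off MAP kinases as part of the feedback on this response, differed by smaller factors. Its levels were 52.9 to 98.4 CPM in 786-O, 85.3 to 116 in 769-P, 113 to 215 in CAKI-2 and 182 to 263 in A498, with overlap between neighbouring lines. All 6 pairs passed the test, from 3.16-fold for A498 over 786-O (log2 fold change 1.66, SE 0.16, adjusted p = 4.08e-07) down to 1.32-fold for A498 over CAKI-2, where the adjusted p of 0.0342 rose above the threshold in 7 of 11 alternatives. For 769-P over 786-O the log2 fold change of 0.49 (adjusted p = 0.0161) moved to 0.26 without the sgKDM5C 5 libraries (adjusted p = 0.0414), and to 0.26 with the sgKDM5C groups alone, where the call was lost (adjusted p = 0.258). IER2, a small nuclear protein, was the narrowest in range of the 10 genes, at 22.7 to 26.1 CPM in 786-O, 28.5 to 31.7 in 769-P, 28.7 to 39.6 in CAKI-2 and 46.5 to 51.1 in A498. It was higher in A498 than in 786-O (log2 fold change 0.94, SE 0.12, adjusted p = 7.48e-06), whereas 769-P did not pass against 786-O (adjusted p = 0.134) or CAKI-2 (adjusted p = 0.249). With the GC trend removed, A498 no longer passed against 769-P (log2 fold change 0.07) or CAKI-2 and stood at 0.52 over 786-O (adjusted p = 0.00137), and IER2 had a GC content of 63.0%.

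MYC, the bHLH factor that pairs with MAX and drives growth genes, had another order again. It measured 74.6 to 137 CPM in 786-O, 133 to 159 in CAKI-2, 140 to 167 in A498 and 223 to 275 in 769-P. The 769-P libraries thus lay above all others for MYC. MYC was 2.57-fold higher in 769-P than in 786-O (log2 fold change 1.36, SE 0.18, adjusted p = 2.16e-05) and was lower in CAKI-2 than in 769-P (-0.70, SE 0.18, adjusted p = 0.00336), whereas CAKI-2 and A498 did not pass against each other (adjusted p = 0.917). Against 786-O, where 1 library reached 137, CAKI-2 and A498 lost the call when the sgKDM5C groups alone were compared (adjusted p = 0.152 and 0.0536).

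**Figure D2:**
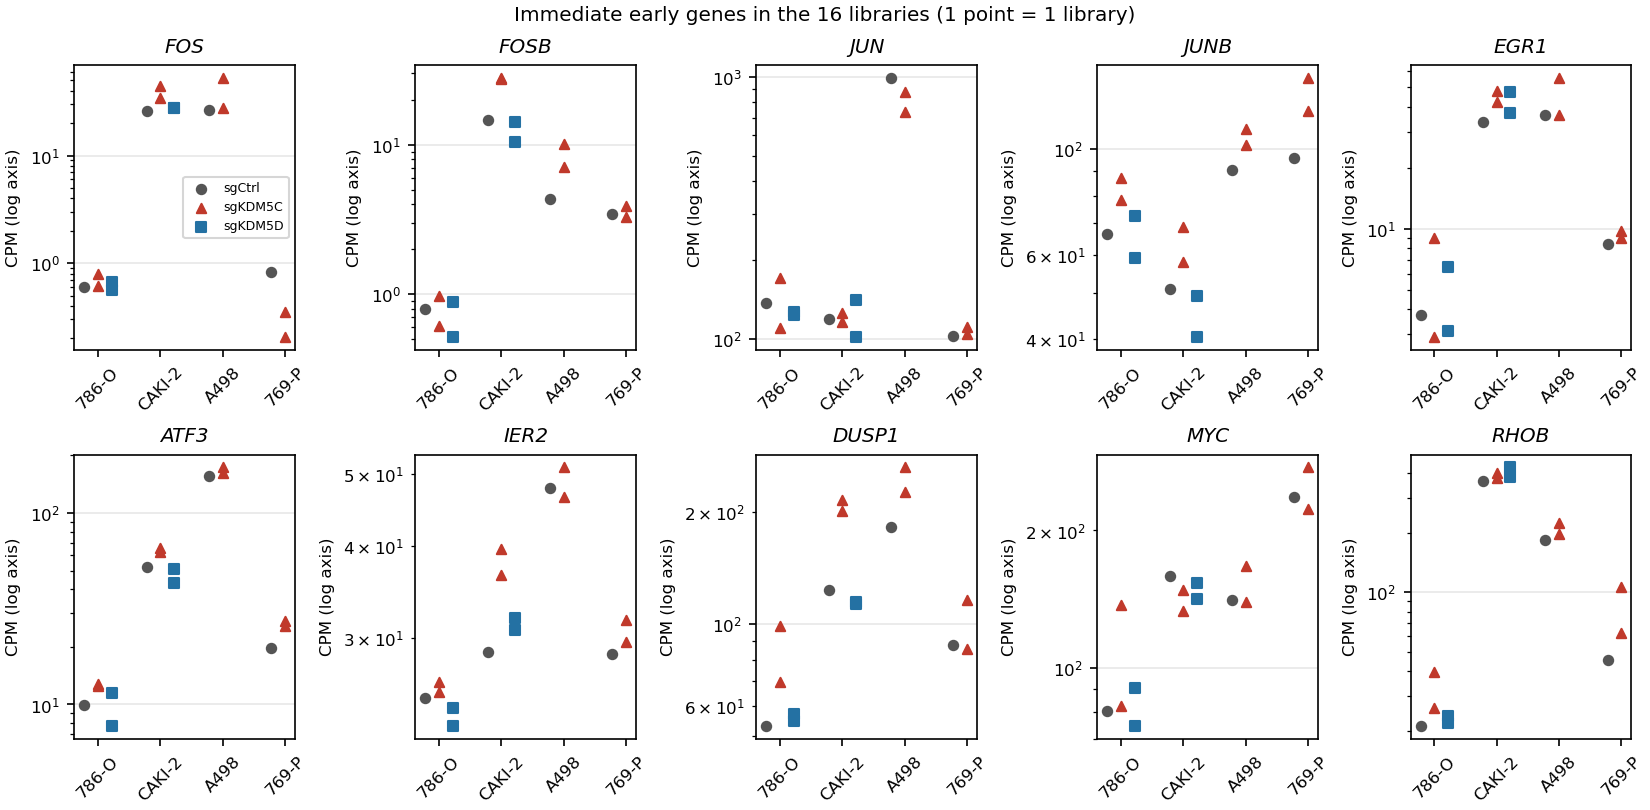
CPM of each immediate early gene in the 16 libraries on a log axis, by line, with 1 point per library (circles sgCtrl, triangles sgKDM5C, squares sgKDM5D). FOS, FOSB, EGR1, ATF3 and RHOB lie lower in 786-O and 769-P than in CAKI-2 and A498, JUN is set apart in A498, and MYC is highest in 769-P.

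The number of the 10 genes that passed in each pair of lines was read against all genes tested. In CAKI-2 against 786-O, 8 were higher and 1 was lower, where 34.9% and 28.4% of all genes were called higher and lower. In A498 against 786-O, 10 were higher and 0 lower, against 37.8% and 30.9% of all genes. In 769-P against 786-O, 7 were higher and 0 lower, against 25.4% and 24.5%. In CAKI-2 against 769-P, 6 were higher and 2 lower, against 35.4% and 28.4%. In A498 against 769-P, 8 were higher and 1 lower, against 38.2% and 31.6%. In CAKI-2 against A498, 2 were higher and 5 lower, against 33.8% and 32%. The median log2 fold change of the 10 genes was 1.82, 2.79, 0.75, 1.06, 1.41 and -0.24 in these pairs, in the same order, where the median over all genes tested lay between 0.01 and 0.17. With the GC trend removed, the last of these pairs kept 4 calls (FOSB, JUN, ATF3 and RHOB). The pairs share libraries, so they are not independent of each other.

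**Figure D3:**
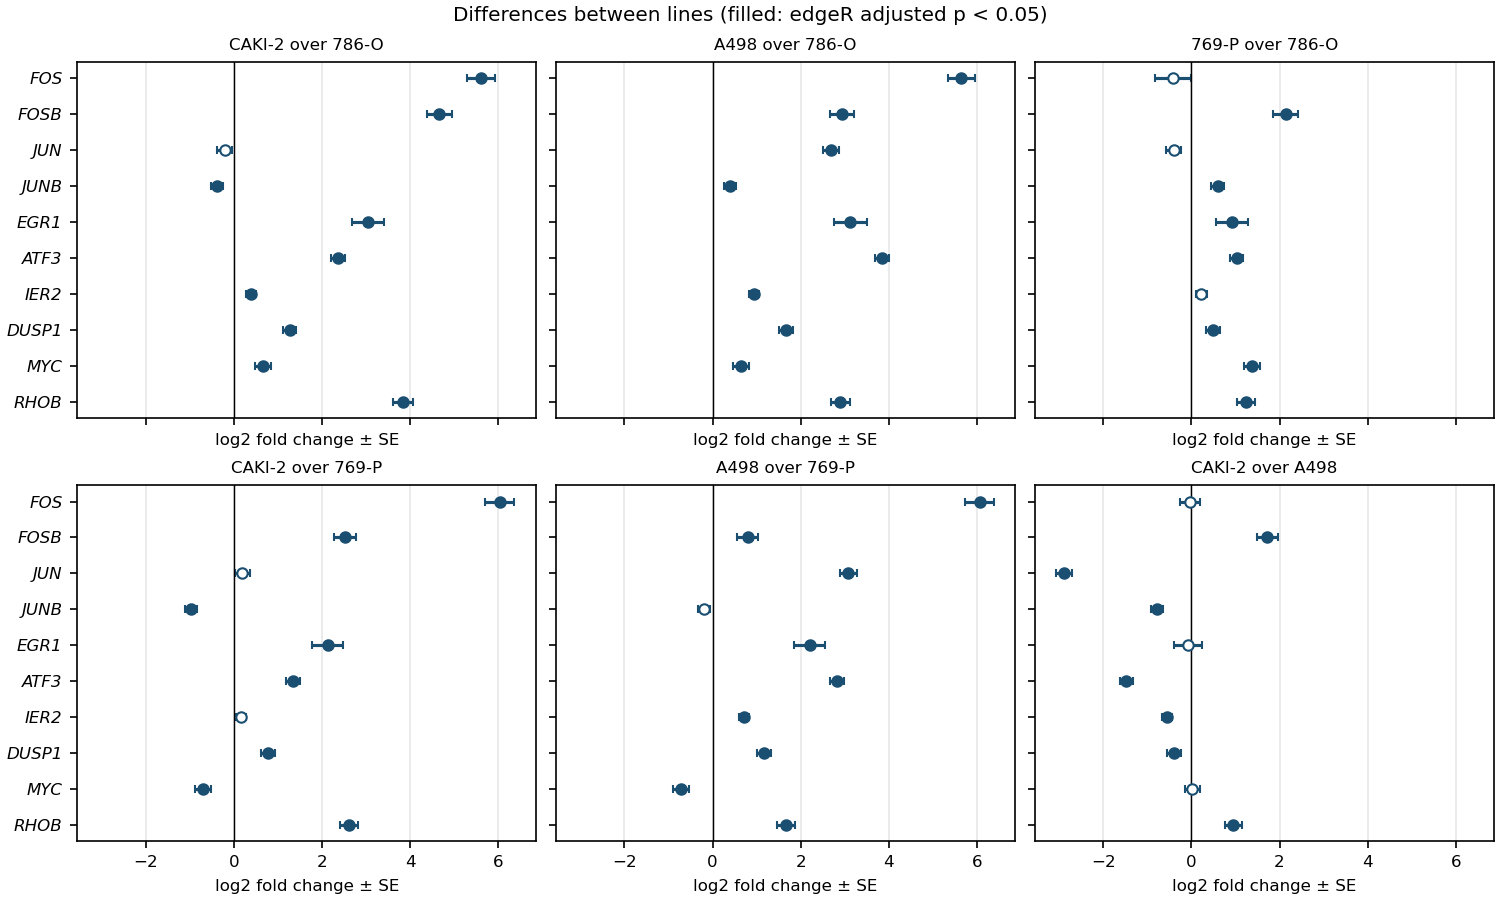
Log2 fold changes (points, horizontal bars ± SE) of the 10 genes in the 6 pairs of lines, with filled points at an edgeR adjusted p below 0.05. FOS reaches 5.61 to 6.06 in the pairs of CAKI-2 or A498 over 786-O or 769-P, while JUN and MYC do not follow it.

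Per kilobase of the canonical transcript, which allows genes to be compared with each other, JUN was the most abundant of the 10 in A498, with a median of 269 CPM per kilobase, and RHOB in CAKI-2, with 161. In 786-O the highest median was that of JUNB (39.6), closely followed by JUN (39.0), and in 769-P it was that of JUNB (65.7) with MYC next to it (63.5). FOS was the lowest gene in 769-P (0.169) and FOSB in 786-O (0.209), CAKI-2 (3.87) and A498 (1.88). The order of the genes therefore differed between the lines, whereas FOSB was last or next to last in each.

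To determine whether KDM5C mutation altered the immediate early genes, each pair of sgKDM5C libraries was set against the sgCtrl library of its line. No gene of the 10 passed the adjusted threshold within any of the 4 lines, and the share of all genes called was 0.00991% for 786-O, 0% for CAKI-2, and 0.00496% for both A498 and 769-P. At an unadjusted p below 0.05 the edgeR test marked 2, 3, 1 and 3 of the 10 (lines in that order), and DESeq2, which called 0 of the 10 in each line after adjustment, marked the same numbers. Of all genes tested, 2.92%, 1.94%, 5.55% and 3.32% had an unadjusted p below 0.05. The median log2 fold change of the 10 genes was 0.33, 0.36, 0.22 and 0.13, whereas that of all genes was at most 0.02. The 10 genes had a positive estimate in 10, 9, 9 and 9 cases, where 49.6%, 49.8%, 52.5% and 52.0% of all genes did. The count for 786-O includes estimates near no change, namely FOSB (6.5e-05), JUN (0.03) and IER2 (0.05). The 1 control library of each line enters every one of these estimates, so the 10 estimates of a line are not independent of each other.

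The DUSP1 values showed the clearest spacing. In CAKI-2 it measured 123 CPM in the control, 114 and 113 in the libraries labelled sgKDM5D 2 and 4, and 201 and 215 in the sgKDM5C 4 and 5 libraries. In 786-O it measured 52.9 in the control, 54.9 and 57.3 with sgKDM5D 2 and 4, and 98.4 and 69.8 with sgKDM5C 4 and 5. In A498 the control had 182 and the sgKDM5C 4 and 5 libraries 225 and 263. In these 3 lines every sgKDM5C library lay above every other library of its line, while in 769-P the control (87.5) lay between sgKDM5C 4 (85.3) and sgKDM5C 5 (116). DUSP1 had a log2 fold change over the control of 0.75 in CAKI-2, 0.67 in 786-O, 0.42 for A498 and 0.20 for 769-P (SE 0.22 each), with adjusted p of 1, 1, 0.894 and 1. The estimate in 786-O was 0.41 without the sgKDM5C 4 library. In a fit of the CAKI-2 libraries alone, where 0.0498% of all genes were called, DUSP1 was called (adjusted p = 0.0275).

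FOSB, RHOB and FOS were the other genes with the largest estimates. FOSB measured 14.6 CPM in the CAKI-2 control, 27.5 and 27.9 with sgKDM5C 4 and 5, and 14.1 and 10.5 in the libraries labelled sgKDM5D. In A498 the control had 4.30, and sgKDM5C 4 and 5 gave 10.1 and 7.11. The sgKDM5C libraries of both lines lay above the control, with log2 fold changes of 0.92 (SE 0.31, adjusted p = 1) in CAKI-2 and 0.998 (SE 0.34, adjusted p = 0.852) in A498, whereas in 786-O and 769-P they lay on both sides of it. RHOB measured 45.4 CPM in the 769-P control against 107 and 62.6 with sgKDM5C 4 and 5, and 21.1 in the 786-O control against 39.8 and 26.0 with the same guides. Its log2 fold change was 0.90 in 769-P (SE 0.29, adjusted p = 1) and 0.64 in 786-O (SE 0.29, adjusted p = 1), and without the sgKDM5C 4 library of the line it moved to 0.46 in 769-P and to 0.31 in 786-O. In 769-P RHOB was called when every gene with at least 1 count was tested (adjusted p = 0.0108), as were 0.174% of all genes. FOS had the largest negative estimate, -1.52 in 769-P (SE 0.61, adjusted p = 1), on 20 counts in the control against 10 and 5 in the sgKDM5C libraries. The remaining estimates with an unadjusted p below 0.05 were those of IER2 in CAKI-2 (0.41, SE 0.17) and JUNB in 769-P (0.45, SE 0.20). EGR1 in 786-O had the largest estimate of its line (0.68, SE 0.54), and it turned to -0.35 without the sgKDM5C 4 library. The largest negative estimates elsewhere were -0.30 for JUN in A498 (SE 0.24) and -0.17 for MYC in CAKI-2 (SE 0.25).

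Averaged over the 4 lines, 8 sgKDM5C libraries against 4 controls, 0 of the 10 genes passed the adjusted threshold in edgeR, as did 0.00991% of all genes. There were 5 genes that had an unadjusted p below 0.05, all with a positive estimate, where 5.18% of all genes did. They were DUSP1 (log2 fold change 0.51, SE 0.11, adjusted p = 0.511, above the control in 7 of 8 libraries), FOSB (0.50, SE 0.19, adjusted p = 0.901, 6 of 8), RHOB (0.46, SE 0.14, adjusted p = 0.883, 8 of 8), JUNB (0.33, SE 0.10, adjusted p = 0.883, 8 of 8) and ATF3 (0.29, SE 0.11, adjusted p = 0.901, 8 of 8). DESeq2 called DUSP1 (adjusted p = 0.0141) and 0.186% of the genes it gave an adjusted p. The edgeR test called DUSP1 without the 786-O sgKDM5C 5 library (adjusted p = 0.0269), with 0.169% of all genes. It called DUSP1 and RHOB without the sgKDM5C 5 libraries of all lines (adjusted p = 0.0158 and 0.0137), with 1.51% of all genes, and when every gene with at least 1 count was tested, with 0.281%. The FOSB estimate was 0.33 without the A498 line. Over 22 alternatives the log2 fold change of DUSP1 ran from 0.42 to 0.61 and its adjusted p from 0.000725 to 1, with 4 alternatives below the threshold. JUN had the largest negative estimate (-0.04, SE 0.12), and its sign changed under 5 alternatives.

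JUNB, ATF3 and RHOB were higher in all 8 sgKDM5C libraries than in the control of the line, which held for 1.24% of all genes tested. ATF3 measured 9.97 CPM in the 786-O control and 12.8 and 12.5 with sgKDM5C, 52.3 and then 62.9 and 65.9 in CAKI-2, 156 and then 161 and 173 in A498, and 19.8 and then 25.7 and 27.3 in 769-P. With the GC trend removed, IER2 and DUSP1 joined these 3 genes, and 1.68% of all genes did the same. Within 786-O, both sgKDM5C libraries lay above the other 3 libraries for 5 of the 10 genes (JUNB, ATF3, IER2, DUSP1 and RHOB), and for 7.67% of all genes. With the GC trend removed IER2 dropped out, which left 4 genes, and 8.54% of all genes met the same order. Within CAKI-2 this held for 6 of the 10 (FOS, FOSB, JUNB, ATF3, IER2 and DUSP1), and for 12.4% of all genes. These orders are descriptions with no test.

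The KDM5C effect was not shown to differ between lines. The joint test over the 4 lines called 0 of the 10 genes and 0% of all genes in edgeR, and 0 of the 10 in DESeq2. In edgeR 1 gene, FOS, had an unadjusted p below 0.05 (adjusted p = 1), where 2.29% of all genes did. The 2 sgKDM5C guides were compared over the 4 lines in the same way. The edgeR test called 0 of the 10 genes and 0% of all genes, and DESeq2 called 0 and marked 0 before adjustment. At an unadjusted p below 0.05 edgeR marked 3.95% of all genes and 1 of the 10, MYC (log2 fold change 0.32 for guide 5 over guide 4, SE 0.14, adjusted p = 0.961). That difference was 0.15 without the 786-O line, where MYC measured 137 CPM with sgKDM5C 5 and 82.8 with sgKDM5C 4. EGR1 had the largest estimate in the other direction (-0.40, SE 0.23).

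The libraries labelled sgKDM5D were compared with the same controls in 786-O and CAKI-2. In edgeR and in DESeq2, 0 of the 10 genes passed in either line, with 0 at an unadjusted p below 0.05, and edgeR called 0.0149% of all genes for 786-O and 0% for CAKI-2. The estimates ran from -0.16 (FOSB, SE 0.47) to 0.37 (EGR1, SE 0.54) for 786-O and from -0.25 (FOSB, SE 0.30) to 0.33 (EGR1, SE 0.46) in CAKI-2, with medians of 0.00 and -0.04. The difference of the KDM5D effect between the lines called 0 of the 10 genes in edgeR and DESeq2, with 0 at an unadjusted p below 0.05, and 0.00496% of all genes in edgeR. Its estimates for CAKI-2 minus 786-O lay between -0.21 and 0.21.

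A direct comparison of sgKDM5C with sgKDM5D libraries, 2 against 2, leaves the controls out of the estimate. In 786-O all 10 estimates were positive, as were 50.3% of those of all genes. The median of the 10 was 0.32, where that of all genes was 0.00. In edgeR and in DESeq2, 0 of the 10 passed, and 0.0644% of all genes were called by edgeR. There were 3 genes that had an unadjusted p below 0.05, where 4.78% of all genes did. They were DUSP1 (log2 fold change 0.58, SE 0.18, adjusted p = 0.589), RHOB (0.53, SE 0.23, adjusted p = 0.989) and ATF3 (0.39, SE 0.18, adjusted p = 1). These estimates moved with single libraries. DUSP1 was 0.81 without the sgKDM5C 5 library, where it was called (adjusted p = 0.0283) together with 1.56% of all genes, and 0.33 without sgKDM5C 4 (adjusted p = 0.812). RHOB was 0.81 and 0.21 without the same libraries, and ATF3 ran from 0.14 to 0.70 when 1 of the sgKDM5D libraries was left out. In CAKI-2, 7 of the 10 estimates were positive, as were 49.5% of those of all genes. The median of the 10 was 0.37, where that of all genes was 0. In edgeR 0 of the 10 passed, and 0% of all genes were called. There were 4 genes that had an unadjusted p below 0.05, where 3.38% of all genes did. They were FOSB (1.17, SE 0.25, adjusted p = 0.34), DUSP1 (0.88, SE 0.18, adjusted p = 0.241), JUNB (0.50, SE 0.16, adjusted p = 1) and ATF3 (0.46, SE 0.17, adjusted p = 1). DESeq2 called 2 of the 10, DUSP1 (adjusted p = 0.00407) and FOSB (adjusted p = 0.0353), and 0.181% of the genes it gave an adjusted p. The fit of the CAKI-2 libraries alone called DUSP1 and FOSB (adjusted p = 0.000647 and 0.00112) with 0.573% of all genes, as did the test of every gene with at least 1 count, with 0.271%. In group means DUSP1 measured 208 ± 9.64 CPM with sgKDM5C and 113 ± 1.16 with sgKDM5D, and FOSB 27.7 ± 0.27 and 12.3 ± 2.56 (SD, n = 2 each). The largest negative estimate of this comparison was that of MYC (-0.07, SE 0.20), which was 0.0015 without the sgKDM5C 5 library.

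**Figure D4:**
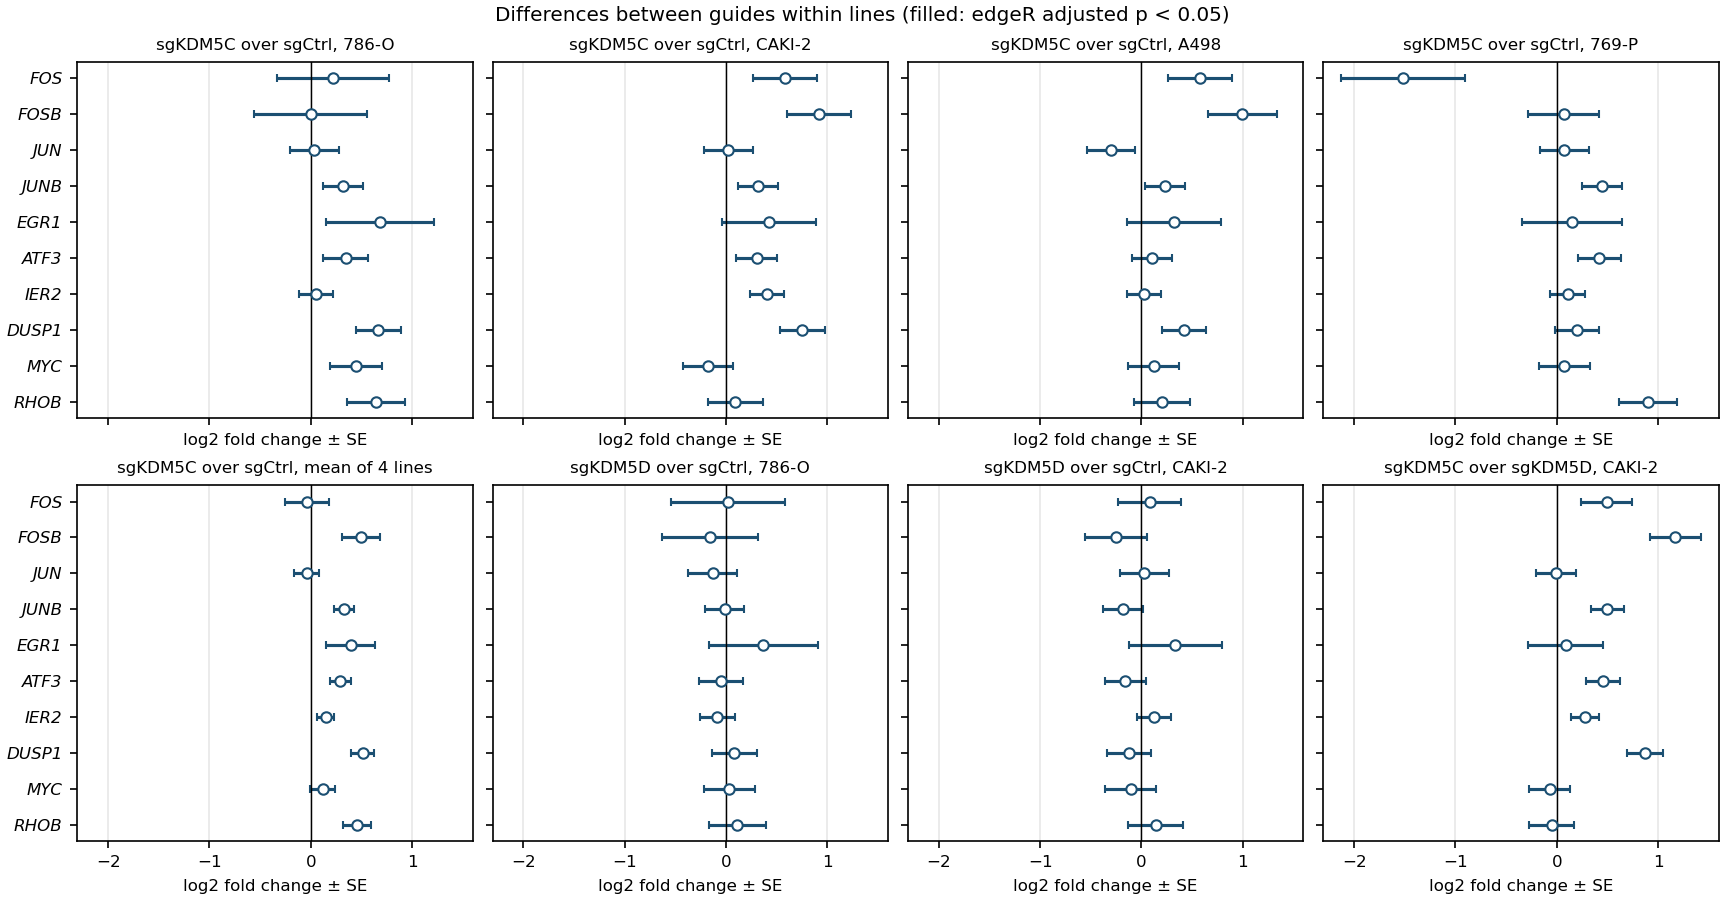
Log2 fold changes (points, horizontal bars ± SE) of the 10 genes for sgKDM5C over sgCtrl per line and as the mean of 4 lines, for sgKDM5D over sgCtrl, and for sgKDM5C over sgKDM5D in CAKI-2. Every point is open because no gene passed an edgeR adjusted p of 0.05, and DUSP1 and FOSB lie farthest to the right in CAKI-2 over sgKDM5D, at 0.88 and 1.17.

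To follow the genes library by library, the log2 CPM of each was taken minus the mean of the libraries of its line. The median over the 10 genes was negative in all 4 sgCtrl libraries (-0.08 for 769-P, -0.14 for A498, -0.15 for CAKI-2 and -0.11 for 786-O) and in all 4 libraries labelled sgKDM5D (-0.10 and -0.21 for CAKI-2, -0.09 and -0.15 for 786-O). It was positive in 7 of 8 sgKDM5C libraries, at 0.26 and 0.11 for guides 4 and 5 of 786-O, 0.13 and 0.26 for CAKI-2, 0.05 and 0.05 for A498, and -0.01 and 0.09 for 769-P. Over all genes tested the same median lay between -0.01 and 0.01. Of the 10 genes, 1 stood above the line mean in each of the CAKI-2, A498 and 769-P controls, and 3 in the 786-O control. The deviations of a gene balance out within its line, so low controls and high sgKDM5C libraries are in part the same observation. Genes are not replicates of a condition, so these medians are a description with no test.

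**Figure D5:**
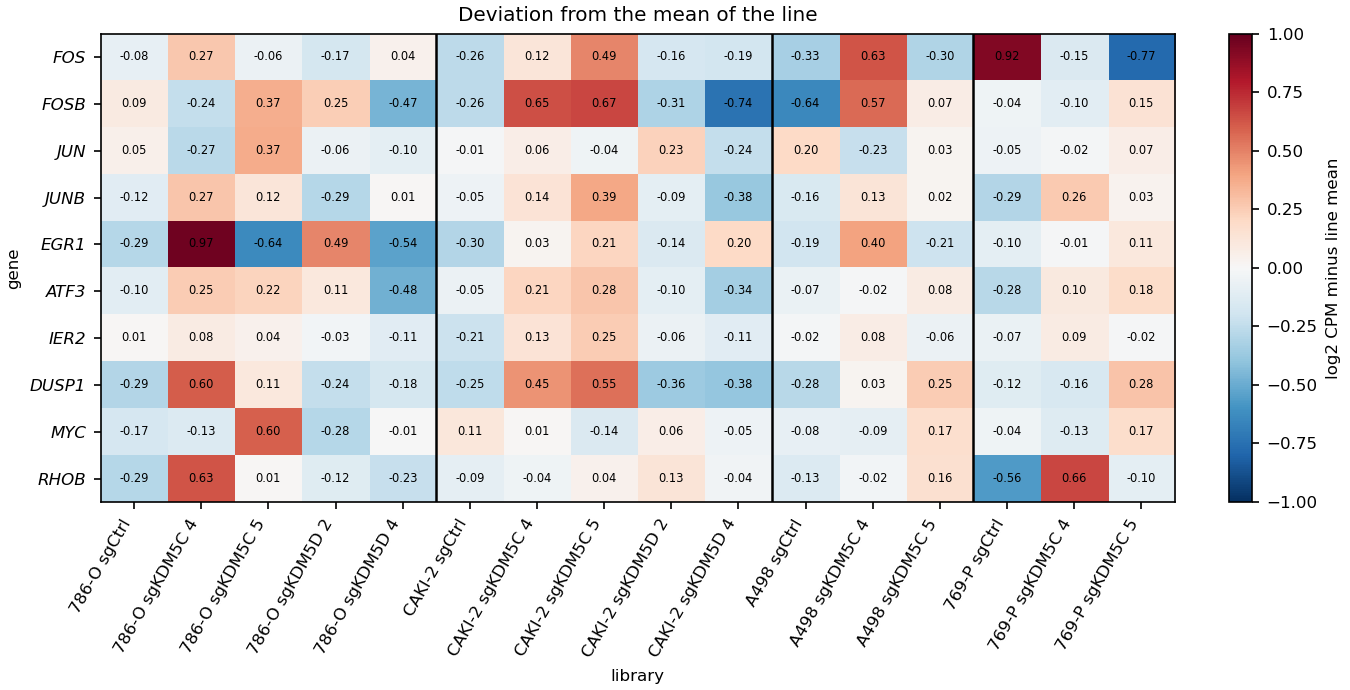
Deviation of each immediate early gene from the mean of its line (log2 CPM minus line mean, printed in each cell), with 16 libraries as columns and vertical lines between cell lines. The CAKI-2 sgKDM5C columns are red for 8 or 9 of the 10 genes, and the 786-O sgKDM5C 4 and 5 columns differ in sign for FOS, FOSB, JUN, EGR1 and MYC.

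The 10 genes did not move as one. Over the 45 pairs, the Pearson correlation of these deviations over 16 libraries, which share lines and controls, had a median of 0.22 and ran from -0.68 (JUN with EGR1) to 0.74 (JUNB with DUSP1), with 32 pairs positive. Against the mean of the other members, IER2 (0.82), DUSP1 (0.79), ATF3 (0.77), JUNB (0.75) and FOSB (0.60) were the most alike, RHOB (0.32), EGR1 (0.25) and FOS (0.13) were weaker, and MYC (-0.08) and JUN (-0.19) were not aligned with the rest. Among 15412 other genes that averaged 20 counts or more, whose median correlation with the mean of the 10 was 0.04, the closest were IGFBP1 (0.89), SLCO2B1 (0.86), C1S (0.86), ITSN1 (0.86), HOXD11 (0.85), PARD3 (0.85), ENSG00000182909 (0.85), PLEK2 (0.85), BRME1 (0.84) and RYR2 (0.84). IGFBP1, which encodes a secreted binder of insulin-like growth factors, was read mainly in 786-O, at 15 CPM in the control, 49.8 and 26.4 with sgKDM5C 4 and 5, and 18.2 and 16.8 with sgKDM5D 2 and 4. In 769-P, HOXD11 measured 0 CPM, PLEK2 at most 0.041 and SLCO2B1 at most 0.164, so their correlations rest mainly on the other lines. PARD3, a cell polarity gene, was well expressed throughout, at 238 CPM in the 786-O control against 296 and 272 with sgKDM5C and 335 in the CAKI-2 control against 356 and 409. None of the 10 closest genes belonged to the lists described next.

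Other genes of the pathway were taken from lists of known members. Their counts between lines stand beside the 24.5% to 38.2% of all genes that were called in any one direction of a pair. Of 33 tested immediate early genes beyond the 10, 0 passed in any guide comparison with edgeR. With sgKDM5C over sgCtrl, the number with an unadjusted p below 0.05 was 2 for 786-O, 1 for CAKI-2, 1 for A498 and 4 for 769-P. For the mean over lines it was 6. In the same order, 2.92%, 1.94%, 5.55%, 3.32% and 5.18% of all genes had such a p. The median log2 fold change of the 33 genes for the mean over lines was 0.12, where all genes had 0.04. Between lines the 33 were called in both directions, with 19 higher and 4 lower in A498 than in 786-O, 19 and 8 in CAKI-2 against 786-O, 10 and 7 in 769-P against 786-O, 16 and 13 in CAKI-2 against 769-P, 19 and 6 in A498 against 769-P, and 9 and 15 in CAKI-2 against A498. CCN2, a matricellular gene of the YAP and SRF routes, was higher in CAKI-2 cells than in 786-O (log2 fold change 5.81, SE 0.32, adjusted p = 2.22e-09), while GADD45B, a stress sensor, was lower (-3.59, SE 0.27, adjusted p = 4.49e-08). NR4A1, an orphan nuclear receptor, was lower in 769-P than in 786-O (-4.62, SE 0.49, adjusted p = 2.29e-06). It measured only 0.041 to 0.178 CPM in 769-P and 1.62 to 3.32 in 786-O, so this estimate rests on few reads. PPP1R15A, which acts in the integrated stress response, was higher in A498 than in 786-O (3.88, SE 0.19, adjusted p = 6.6e-10). SGK1, a serum-induced kinase, was lower in A498 than in 769-P (-5.96, SE 0.27, adjusted p = 2.36e-10).

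Of 13 feedback and output genes of ERK signalling, 9 were higher and 1 lower in CAKI-2 than in 786-O, with a median log2 fold change of 1.43, and 9 were higher and 4 lower in A498 than in 786-O. DUSP4, an ERK phosphatase, was higher in CAKI-2 cells than in 786-O (log2 fold change 5.28, SE 0.20, adjusted p = 6.61e-11), and DUSP5, another one, was higher in CAKI-2 than in 769-P (6.06, SE 0.20, adjusted p = 1.79e-11). Of the other pairs, 769-P against 786-O had 6 higher and 3 lower, CAKI-2 against 769-P 7 and 1, A498 against 769-P 7 and 5, and CAKI-2 against A498 8 and 3. For sgKDM5C over sgCtrl the ERK genes had a median of 0.01 over the 4 lines, where all genes had 0.04. In that mean 0 were called and 0 had an unadjusted edgeR p below 0.05. By line the median was -0.06 for 786-O, -0.02 for CAKI-2, 0.24 for A498 and -0.14 for 769-P. In sgKDM5C against sgKDM5D it was -0.24 for 786-O and -0.05 for CAKI-2, with 1 and 4 of the 13 genes positive.

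Heat shock genes respond to protein stress. Of 12, 0 were higher and 9 lower in A498 than in 786-O, with HSPA8, a constitutive chaperone, lowest (log2 fold change -4.22, SE 0.20, adjusted p = 3.98e-10), and 3 were higher and 7 lower in CAKI-2 than in 786-O. In the remaining pairs 1 was higher and 4 lower (769-P against 786-O), 3 and 6 (CAKI-2 against 769-P), 2 and 8 (A498 against 769-P), and 8 and 1 (CAKI-2 against A498). Their median for sgKDM5C over sgCtrl was 0.02 over the 4 lines, with 0 called and 1 at an unadjusted p below 0.05. Of 18 upstream kinases and transcription factors, 1 was higher and 12 lower in A498 than in 786-O, CAKI-2 had 3 higher and 10 lower than 786-O, and MAPK3, which encodes ERK1, rose most in both (1.44, SE 0.18, adjusted p = 5.32e-06, and 1.45, SE 0.18, adjusted p = 6.32e-06). In the remaining pairs 3 were higher and 5 lower (769-P against 786-O), 4 and 6 (CAKI-2 against 769-P), 3 and 11 (A498 against 769-P), and 11 and 2 (CAKI-2 against A498). Of 10 tested genes of the MYC network, 1 was higher and 4 lower in 769-P, the line highest for MYC, than in 786-O, 6 and 2 in A498 against 786-O, 2 and 3 in CAKI-2 against 786-O, 3 and 3 in CAKI-2 against 769-P, 6 and 2 in A498 against 769-P, and 2 and 5 in CAKI-2 against A498. Neither of these lists held a gene called in a guide comparison, and for the mean over lines their medians were 0.05 and -0.05, with 0 and 2 genes at an unadjusted p below 0.05. For that mean, 5.18% of all genes had such a p.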

How the data were processed

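Total RNA from the 16 libraries was isolated (NucleoSpin RNA), made into Illumina TruSeq Stranded libraries and sequenced paired-end on a NovaSeq. The authors deposited raw counts per Ensembl gene with no normalization. The submitters' processing notes name Trimmomatic 0.38, STAR 2.5.2b and GRCh37, and the counting tool, annotation release and use of strand are not given in the sources used here. Genes that overlap on opposite strands could therefore share reads.

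As in the study, a gene was tested if its counts summed to 60 or more. The edgeR 4.0.16 quasi-likelihood test (R 4.3.3) with TMM scaling was fitted to 16 libraries in 10 groups of line and genotype, with 6 residual degrees of freedom, and p-values were adjusted by Benjamini-Hochberg over all 20175 genes at a threshold of 0.05. The sgKDM5C guides were compared in a fit of the 8 sgKDM5C libraries with line as covariate. SE was taken as the log2 fold change over the square root of its F value. Single-library values are CPM, or log2 CPM with a prior count of 2, and per-kilobase values used the canonical transcript of GENCODE 44 on GRCh37. The procedure was tested on simulated data. DESeq2 1.42.0, RLE size factors, other filters, GC trend removal (lowess span 0.3), a block for guide number, fits of fewer libraries and leaving out each sgKDM5C or sgKDM5D library were the alternatives.

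Fold changes were printed for members that passed an adjusted or unadjusted p of 0.05 or were the largest of a comparison, where this did not repeat another, and list genes only where called with the largest change of their list and direction. The members and lists were chosen with earlier results of these data known. All counts carry sampling error, which in relative terms is largest for FOS in 786-O and 769-P and for FOSB in 786-O. No library was left out, and no library sits in a batch known from the labels.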

Additional observations from a re-analysis of the deposited data

How the results depend on the processing

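Of 1012 recomputed fold changes of single genes, 958 kept their direction and their side of the threshold, 25 lost the call, 18 gained one and 11 changed sign. Counts of genes called moved as follows. Testing every gene with at least 1 count gave 1 call for sgKDM5C in 769-P (RHOB), 2 over the 4 lines (RHOB and DUSP1) and 2 for sgKDM5C against sgKDM5D in CAKI-2 (FOSB and DUSP1). DESeq2 gave 1 over the 4 lines (DUSP1) and 2 for sgKDM5C against sgKDM5D in CAKI-2 (FOSB and DUSP1), and the fit of CAKI-2 alone gave 1 for sgKDM5C (DUSP1) and 2 against sgKDM5D. Removal of the GC trend left 4 of 7 calls for CAKI-2 against A498, as did its combination with the replicate block. Over all 11 alternatives the count ran from 4 to 8 in that pair, from 7 to 9 for CAKI-2 against 786-O (9 as reported), from 8 to 10 for A498 against 786-O (10), from 5 to 8 for 769-P against 786-O (7) and from 8 to 9 for A498 against 769-P (9), and stayed at 8 for CAKI-2 against 769-P. Leaving out 1 library or guide gave 0 to 2 calls over the 4 lines and 0 to 1 for sgKDM5C against sgKDM5D in 786-O. The JUN estimate over the 4 lines became 0.017 with the GC trend removed, 0.015 with the replicate block added and 0.044 without the A498 line, and ran from -0.16 to 0.070 when libraries were left out. JUNB in A498 against 786-O became -0.12 in both GC fits. When libraries were left out, the 786-O estimate of EGR1 ran from -0.35 to 1.28 for sgKDM5C and from -0.25 to 0.77 for sgKDM5D, that of FOSB for sgKDM5D from -0.61 to 0.15, and that of MYC for sgKDM5C against sgKDM5D in CAKI-2 from -0.13 to 0.0015. The cause was not tested. Guide numbers did not pair the libraries: the difference of guides 4 and 5 correlated at -0.19 to 0.25 between lines, and the replicate block left DUSP1 over the 4 lines at 0.51 (adjusted p = 0.592). Each comparison with sgCtrl rests on 1 control library, which limits all precision here.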

Other observations

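Within 786-O the library with sgKDM5C 4 stood apart from the other 4 libraries of the line in several immediate early genes at once, in both directions, as was noticed after the values were seen. EGR1 measured 9.02 CPM there against 2.91 to 6.44 in the other libraries, DUSP1 98.4 against 52.9 to 69.8, RHOB 39.8 against 21.1 to 26.0 and EGR2, a paralogue of EGR1, 7.48 against 1.77 to 4.31. JUN, in contrast, measured 110 against 124 to 171, FOSL1, a FOS family member that follows sustained ERK activity, 111 against 215 to 291, and CCN1, a matricellular gene, 95.8 against 168 to 310. The library was apart in genes of other lists as well, such as HSPA8 (1926 CPM against 2465 to 2932), BAG3 (69.6 against 112 to 143) and MAP2K2 (130 against 187 to 219). Others lay within the range, such as MAPK14 (81.8 against 73.0 to 83.6), FOSB (0.615 against 0.515 to 0.970) and MYC (82.8 against 74.6 to 137). ATF3 (12.8 against 7.69 to 12.5) and IER2 (26.1 against 22.7 to 25.3) lay just above it. The share of all genes that stood apart was not counted. The same library held the least KDM5C transcript of the 16, at 26.2% of its control. These values rest on 1 library, and the part of KDM5C in them was not tested.

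In 769-P, SGK1 measured 77.3 CPM in the control against 149 and 125 with sgKDM5C 4 and 5, the same order of the 3 libraries as for RHOB and JUNB, and the gene was chosen after its values were seen. FOS took the lowest 2 values of the 16 libraries in the same sgKDM5C libraries.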
